A study of Mus musculus with 6 samples.

Results

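The Homer, Shank and Dlgap genes encode 3 families of scaffold proteins of the excitatory synapse. All 10 genes of these families (Homer1 to Homer3, Shank1 to Shank3 and Dlgap1 to Dlgap4) were taken by symbol from the 54658 genes listed in the count tables. RNA came from the nucleus accumbens, a region of the ventral striatum, of male C57BL6 mice aged 8 weeks. In the Gas5 group (3 libraries) a herpes simplex virus vector, p1005+, carried the long noncoding RNA Gas5 with EGFP, and in the GFP group (3 libraries) the same vector carried EGFP alone. Both groups thus received virus and EGFP, and the labels name no uninjected tissue, no drug exposure in these samples, no promoter for the insert and no number of mice per sample. The series title asks about Gas5 in the action of cocaine, and Gas5 against GFP is the comparison that these libraries allow.

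At glutamatergic synapses the 3 families form a layered lattice beneath the membrane. Dlgap proteins (also called SAPAP or GKAP) bind the membrane-associated guanylate kinase Dlg4 and its relatives, which hold the receptors. Shank proteins bind Dlgap proteins through a PDZ domain, and Homer proteins bind Shank and link it to group I metabotropic glutamate receptors and to calcium channels of internal stores. In the striatum the excitatory input that these synapses receive comes from cortex, thalamus, amygdala and hippocampus, and Shank3 and Dlgap3 are known for their part in striatal synapses and in grooming behaviour of mice.

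Total counts ranged from 32359052 to 56081575 per library. Gas5, the delivered gene, measured 22.6, 23.3 and 23.6 CPM (the usual depth-normalised count, here with TMM-scaled library sizes) across Gas5 libraries A to C and 18.6, 16.5 and 18.3 CPM across GFP libraries A to C. It was higher by 1.30-fold with an edgeR adjusted p of 0.0163. Counts run over a whole gene span, introns included, and reads that fall where listed genes overlap appear to be left out, since 18 of the 18 genes lying within a scaffold gene had 0 counts in all 6 libraries. The labels do not say that the libraries come from separate mice, so p-values measure only how far these samples spread, which may be technical.

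Of the 10 scaffold genes, 4 were lower in the Gas5 libraries and 0 higher in the edgeR quasi-likelihood test, adjusted over all 17563 genes tested. The 4 were Homer1, Homer2, Shank1 and Dlgap1, so each family had a lower member. Over all tested genes 3.96% were called lower and 1.48% higher, 5.44% in either direction. The median log2 fold change was -0.23 over the 10 scaffold genes and 0.016 over all tested genes, and 8 of the 10 were negative, against 45.8% of all tested genes. The median of the 10 was -0.14 without Gas5 A, -0.33 without Gas5 B and 0.15 with a score of cortical neuron markers, described further on, as a covariate. An unadjusted p under 0.05 was reached by 5 of the 10 and by 21.4% of all tested genes. All 3 Gas5 libraries lay below all 3 GFP libraries for 6 of the 10, against 13.9% of all tested genes. The number called lower was 1 without GFP B (Homer2), 2 without GFP C (Homer2 and Shank1) and 0 with that covariate. In bulk tissue fewer cells of a type and less RNA per cell cannot be told apart.

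**Figure D1:**
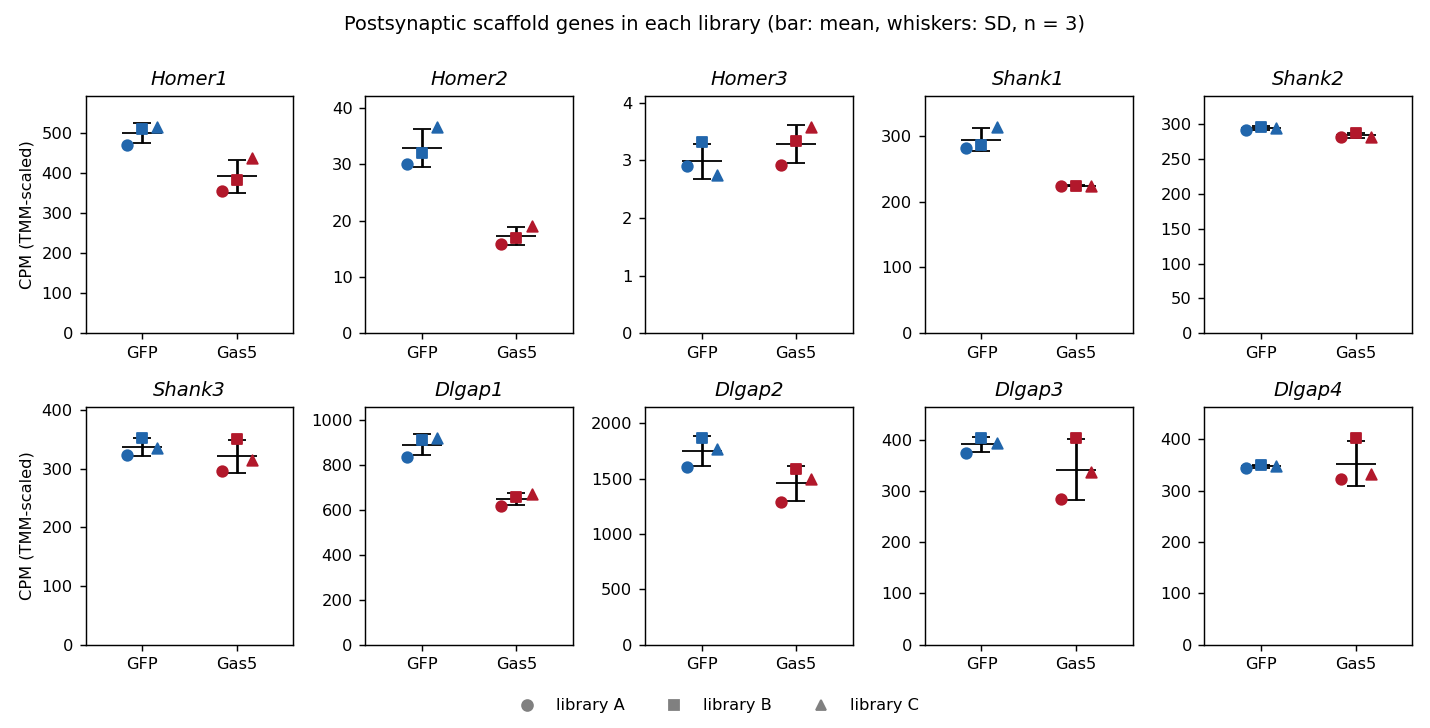
CPM of each scaffold gene in the 3 GFP and 3 Gas5 libraries, with a separate linear axis from 0 for each gene, points for libraries, long bars for group means and whiskers for the SD (n = 3). For Homer1, Homer2, Shank1, Shank2, Dlgap1 and Dlgap2 the Gas5 points all lie below the GFP points.

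Homer2 had the largest decrease of the 10. It encodes a constitutively expressed Homer protein whose coiled coil lets it form multimers and whose EVH1 domain binds proline-rich sites of its partners. Homer2 stood at 15.8, 17.0 and 19.0 CPM across Gas5 libraries A to C and at 30.0, 32.1 and 36.7 CPM across GFP libraries A to C. The highest Gas5 library was well under the lowest GFP library. The gene was 1.90-fold lower (95% interval 1.64 to 2.21), with a log2 fold change of -0.93 (SE, standard error, 0.0932) and an adjusted p of 0.00473, and ranked 16 among all tested genes by p. Raw counts of 680 to 1667 per library lie behind these values. Homer2 remained called in 13 of the 13 alternatives that did not model the cortical marker score, with log2 fold changes between -1.01 and -0.85.

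Homer1 is the most abundant Homer gene per length here. Its long products cross-link Shank and metabotropic receptors, while a short product, Homer1a, is induced by activity and lacks the coiled coil. Counts over the whole span do not separate the short from the long products. Homer1 measured 355, 384 and 437 CPM across Gas5 libraries A to C and 472, 512 and 517 CPM across GFP libraries A to C. The groups did not overlap, but Gas5 C came close to GFP A. It was 1.28-fold lower (95% interval 1.12 to 1.45), with a log2 fold change of -0.35 (SE 0.0805) and an adjusted p of 0.0438. The call was lost under upper quartile scaling (adjusted p 0.0526) and without any library other than Gas5 C (adjusted p 0.0559 to 0.174).

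Homer3, the third Homer gene, was not called. Its levels were 2.92, 3.34 and 3.59 CPM across Gas5 libraries A to C and 2.90, 3.32 and 2.74 CPM across GFP libraries A to C, with overlapping groups. The log2 fold change was 0.14 with a 95% interval of -0.18 to 0.45, an interval that excludes decreases of the size measured for Homer1 or Homer2. It lay between 0.059 (without Gas5 C) and 0.22 (without GFP B) when a library was left out. Only 87 to 161 counts per library lie behind it, and 40.3% of its exon bases are shared with Ddx49 on the opposite strand.

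The 3 Homer genes lie apart in the genome (GRCm38). Homer1 spans chromosome 13 from 93299635 to 93405129 on the plus strand, Homer2 chromosome 7 from 81600481 to 81707527 on the minus strand, and Homer3 chromosome 8 from 70282827 to 70294361 on the plus strand. Exons cover 11.4%, 11.8% and 29.8% of these spans. The windows of 300 bases around a start site (250 before, 50 after; RefSeq, GRCm38.p6) are shown to set the 2 lower Homer genes beside their paralog that was not called. They are chr13:93303507-93303806 on the plus strand for Homer1, chr7:81706876-81707175 on the minus strand for Homer2 and chr8:70282749-70283048 on the plus strand for Homer3. Capitals mark TGACG, the core of the cyclic AMP response element, and GGGCGG, the GC box bound by Sp factors, on either strand.
Homer1: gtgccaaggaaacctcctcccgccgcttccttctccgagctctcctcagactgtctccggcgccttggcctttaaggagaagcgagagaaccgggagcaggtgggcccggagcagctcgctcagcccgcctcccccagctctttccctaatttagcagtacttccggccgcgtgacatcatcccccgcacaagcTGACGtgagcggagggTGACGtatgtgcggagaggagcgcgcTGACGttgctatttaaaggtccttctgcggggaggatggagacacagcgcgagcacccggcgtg
Homer2: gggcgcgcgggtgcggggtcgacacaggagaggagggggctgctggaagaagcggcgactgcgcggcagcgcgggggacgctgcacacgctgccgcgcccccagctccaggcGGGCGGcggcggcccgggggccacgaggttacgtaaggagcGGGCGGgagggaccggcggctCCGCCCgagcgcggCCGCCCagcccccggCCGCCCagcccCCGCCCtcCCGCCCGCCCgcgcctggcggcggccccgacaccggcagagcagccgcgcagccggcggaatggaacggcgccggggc
Homer3: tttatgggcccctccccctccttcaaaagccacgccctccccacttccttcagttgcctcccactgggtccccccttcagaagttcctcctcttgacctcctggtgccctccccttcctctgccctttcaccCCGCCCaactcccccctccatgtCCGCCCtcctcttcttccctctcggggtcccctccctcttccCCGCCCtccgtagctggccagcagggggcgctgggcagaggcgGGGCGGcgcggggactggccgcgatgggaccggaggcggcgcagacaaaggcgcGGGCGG

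The Homer1 window held 3 matches to TGACG and 0 to GGGCGG. The Homer2 window held 0 and 8, and the Homer3 window 0 and 5. A link between these letters and the calls was not tested. Homer1 and Homer2 each have a second window, not printed, with 0 matches to either. Of the other scaffold genes with windows, Dlgap4 (not called) had 1 match to TGACG and 3 to GGGCGG, and Shank3 (not called) 0 and 4. Dlgap1 (called lower) and Dlgap3 (not called) had 0 matches to either. Among 32851 windows of this length, 20.8% held TGACG and 35.7% held GGGCGG. The full element TGACGTCA, which contains the TGACG core, was in 0 of the 10 windows that matched 7 of the 10 scaffold genes and in 1.79% of all windows. The E-box CANNTG, bound by basic helix-loop-helix factors, was in 8 of those 10 windows and in 72.3% of all windows. The Homer2 window was 82.3% G and C, against 63.0% for Homer1, 69.7% for Homer3 and a median of 52.7% over all windows. These are matches of letters and show no binding.

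The shares of the minor members in the Homer family did not overlap between the groups, Homer2 being lower and Homer3 higher with Gas5, and were not tested. As a share of the summed Homer level per kilobase of countable span, Homer2 made up 3.90%, 3.87% and 3.83% across Gas5 libraries A to C and 5.59%, 5.50% and 6.26% across GFP libraries A to C. Homer3 made up 7.41%, 7.80% and 7.39% against 5.54%, 5.84% and 4.78%. A share also moves with the rest of its family. The CPM of Homer3 itself overlapped between the groups and was not called, while Homer1, most of the sum, was lower. Homer1 made up 88.6% ± 0.238 with Gas5 and 88.8% ± 0.150 with GFP alone (SD, n = 3 each). Within a library the ratio of Homer2 to Homer1 counts does not depend on scaling. On the log2 scale it was -4.49, -4.50 and -4.52 across Gas5 libraries A to C and -3.98, -4.00 and -3.81 across GFP libraries A to C, a difference of -0.58. The groups were separate. An exact permutation test, 2-sided, returned p = 0.1, below which 3 against 3 libraries cannot go (Benjamini-Hochberg adjusted over the 3 ratios tested, 0.15).

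**Figure D2:**
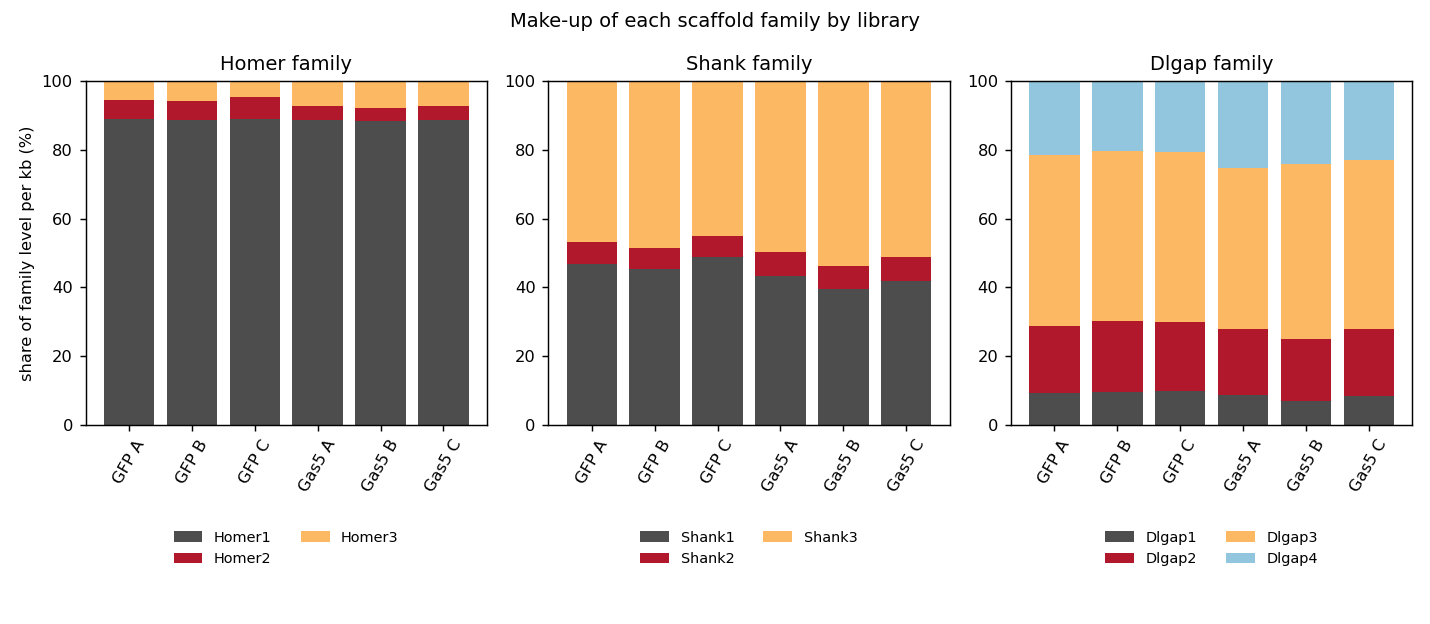
Share of each paralog in the summed level of its family, in percent of CPM per kilobase of countable span, for each of the 6 libraries. Homer2 takes 3.83% to 3.90% of the Homer level in the Gas5 libraries and 5.50% to 6.26% in the GFP libraries.

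Among the Shank genes, Shank1 alone was called. Shank1 encodes a large scaffold with ankyrin repeats, an SH3 domain, a PDZ domain and a Homer-binding proline-rich region, and it lies on chromosome 7 from 44310253 to 44360572 on the plus strand. Its level was 223, 224 and 224 CPM across Gas5 libraries A to C and 281, 287 and 314 CPM across GFP libraries A to C. The Gas5 libraries were nearly level with each other (coefficient of variation 0.266%, against 5.97% in the GFP libraries) and all lay below the GFP libraries. Shank1 was 1.31-fold lower (95% interval 1.20 to 1.43), with a log2 fold change of -0.39 (SE 0.0541) and an adjusted p of 0.010. The call was lost without GFP B (adjusted p 0.0518).

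Shank2, a relative that spans 423 kb of chromosome 7 (144001928 to 144424494), measured 282, 288 and 282 CPM across Gas5 libraries A to C and 292, 297 and 295 CPM across GFP libraries A to C. The groups did not overlap, but the difference was small. Its log2 fold change was -0.054 with a 95% interval of -0.15 to 0.046 and an edgeR adjusted p of 0.523. Shank3, whose human counterpart is lost in Phelan-McDermid syndrome, lies on chromosome 15 from 89499623 to 89560261. It measured 296, 350 and 315 CPM across Gas5 libraries A to C and 323, 352 and 334 CPM across GFP libraries A to C, with Gas5 B inside the GFP range. The log2 fold change was -0.069 with a 95% interval of -0.23 to 0.090 and an edgeR adjusted p of 0.614. It moved to -0.022 without Gas5 A and to -0.14 without Gas5 B. Decreases as large as that of Shank1 lie outside the intervals of both Shank2 and Shank3 with all 6 libraries.

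The ratio of Shank1 to Shank3 counts was -0.41, -0.64 and -0.49 on the log2 scale across Gas5 libraries A to C and -0.20, -0.30 and -0.090 across GFP libraries A to C. The difference was -0.32 with separate groups, at an exact permutation p of 0.1, 2-sided (adjusted over the 3 ratios, 0.15). Shank1 made up 41.6% ± 1.79 of the summed Shank level per kilobase with Gas5 and 47.0% ± 1.72 with GFP alone, and Shank3 51.6% ± 2.02 and 46.8% ± 1.65 (SD, n = 3 each).

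Of the Dlgap genes, Dlgap1 was called. It encodes the best studied of the proteins that bridge Dlg4 and Shank, and spans 852 kb of chromosome 17 (69969073 to 70821413), of which 2.10% is exon. Dlgap1 measured 618, 660 and 670 CPM across Gas5 libraries A to C and 837, 912 and 922 CPM across GFP libraries A to C. The gap between the groups was wider than the range within either. It was 1.37-fold lower (95% interval 1.24 to 1.52), with a log2 fold change of -0.46 (SE 0.0630) and an adjusted p of 0.010. The call was lost without GFP B (adjusted p 0.0606) or GFP C (adjusted p 0.0609).

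Dlgap2, another long member on chromosome 8 (14095865 to 14847680, 0.818% exon), measured 1287, 1588 and 1497 CPM across Gas5 libraries A to C and 1605, 1870 and 1773 CPM across GFP libraries A to C. The groups were separate by the narrow step from Gas5 B to GFP A. The log2 fold change was -0.26 (SE 0.0945) with an edgeR adjusted p of 0.151, and the gene was called by DESeq2 (adjusted p 0.0427). Dlgap3, the member known for striatal expression, lies on chromosome 4 from 127169204 to 127237022 and shares none of its span with other genes. It measured 285, 405 and 338 CPM across Gas5 libraries A to C and 376, 405 and 395 CPM across GFP libraries A to C. Gas5 A was the lowest of the 6 libraries while Gas5 B was level with GFP B at the top, and the log2 fold change was -0.19 with a 95% interval of -0.45 to 0.060. It moved to -0.084 without Gas5 A and to -0.33 without Gas5 B (edgeR adjusted p 0.0551).

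Dlgap4, the most widely expressed member of its family, lies on chromosome 2 from 156613705 to 156764363. It measured 323, 403 and 332 CPM across Gas5 libraries A to C and 344, 351 and 347 CPM across GFP libraries A to C, with the GFP libraries inside the range of the Gas5 libraries. Its log2 fold change was 0.022 (95% interval -0.17 to 0.21, edgeR adjusted p 0.907) and turned to -0.085 without Gas5 B. The ratio of Dlgap2 to Dlgap3 counts overlapped between the groups. On the log2 scale it differed by -0.057 (exact permutation p = 0.6, 2-sided, adjusted over the 3 ratios 0.6), and by 0.0060 without Gas5 B. Gas5 B had the highest level in its group for the 3 Shank genes and for Dlgap2, Dlgap3 and Dlgap4, and Gas5 A had the lowest level in its group for all 10 genes.

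**Figure D3:**
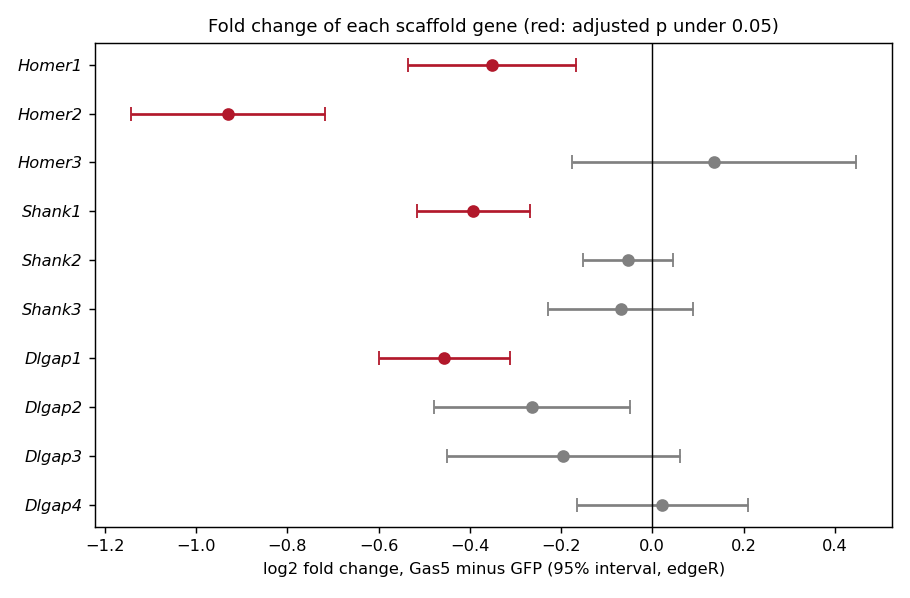
Log2 fold change of each scaffold gene, Gas5 minus GFP, with its 95% interval from the edgeR fit (3 libraries against 3), called genes in red. Homer2 lies at -0.93, Dlgap1, Shank1 and Homer1 between -0.46 and -0.35, and the 95% intervals of Homer3, Shank2, Shank3, Dlgap3 and Dlgap4 include 0.

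Longer genes were called more often, lower as well as higher, with the larger part of the calls lower in each class of span. Of the 10 scaffold genes, 6 span over 100 kb. Of 596 tested genes spanning over 300 kb, 95 were lower and 17 higher, with a median log2 fold change of -0.077. Of 7833 genes under 20 kb, 173 were lower and 70 higher, with a median of 0.028. Dlgap1, Dlgap2 and Shank2 belong to the first class and Homer3 to the second. Homer1, Homer2 and Dlgap4 belong to the 2018 genes of 100 to 300 kb, of which 172 were lower and 51 higher, with a median of -0.025. Shank1, Shank3 and Dlgap3 belong to the 7112 genes of 20 to 100 kb, of which 255 were lower and 121 higher, with a median of 0.020. The part of span in the results was not tested.

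Counts also depend on the length of a gene, so levels are given here per length. In CPM per kilobase of countable span, the order in the GFP group was Shank1 (5.92 ± 0.354), Shank3 (5.90 ± 0.263), Dlgap3 (5.78 ± 0.216), Homer1 (4.91 ± 0.242), Dlgap4 (2.44 ± 0.0213), Dlgap2 (2.34 ± 0.179), Dlgap1 (1.11 ± 0.0578), Shank2 (0.771 ± 0.00633), Homer2 (0.320 ± 0.0334) and Homer3 (0.297 ± 0.0299; SD, n = 3). The first 3 overlapped in their libraries, as did Dlgap4 with Dlgap2 and Homer2 with Homer3. In the Gas5 group Shank3 came first at 5.62 ± 0.480 CPM per kilobase, ahead of Dlgap3 at 5.05 ± 0.888 and Shank1 at 4.51 ± 0.0120, and Homer2 came last at 0.168 ± 0.0160, below Homer3 at 0.327 ± 0.0335 with no overlap (SD, n = 3). The Gas5 libraries of Shank3 and Dlgap3 overlapped in these levels, as did those of Dlgap3 and Shank1. These levels mix exon and intron reads. The divisor is mostly intron, as exons cover from 0.818% (Dlgap2) to 29.8% (Homer3) of a span. By CPM alone Dlgap2 was the highest of the 10 in the GFP group (1749 CPM), so the order depends on the divisor. An order per kilobase of exon was not computed.

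Genes that mark excitatory projection neurons of the cortex were lower in the same libraries. Of 9 such markers 6 were lower and 0 higher, among them Slc17a7, the vesicular glutamate transporter of these neurons, and their summed level was 122 to 190 CPM in the Gas5 libraries and 318 to 457 CPM in the GFP libraries. No marker of the list was at 0 in any library. Slc17a7 ranged from 5.75 to 42.5 CPM in the Gas5 libraries and from 153 to 247 CPM in the GFP libraries, while Cux2 and Lamp5 of the same list were not called (log2 fold changes -0.012 and 0.099). The cortical marker score, the mean log2 CPM of the 9 genes, was 1.76, 2.54 and 2.69 across Gas5 libraries A to C and 3.69, 4.25 and 4.27 across GFP libraries A to C.

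Homer1, Homer2 and Dlgap1 each placed the 6 libraries in the same order as the score, within both groups as well as between them. Shank1 did so but for Gas5 B and C, which were nearly level. How many of all tested genes have this order was not counted. Its part between the groups holds for any gene whose Gas5 libraries all lie below the GFP libraries. Gas5 A was also the lowest of its group for all 10 scaffold genes. With the score as a covariate edgeR called 0 of 17563 genes and 0 of the 10 scaffold genes. An unadjusted p under 0.05 was reached by 458 of the 17563 genes, against 3766 without the score. Homer2 was among the 458, close to the threshold (edgeR unadjusted p 0.0444). In that fit the log2 fold change of Homer2 was -0.45 (SE 0.187), of Shank1 -0.29 (0.139), of Dlgap1 -0.18 (0.123) and of Homer1 0.085 (0.139), at an edgeR adjusted p of 0.995 for each. DESeq2 and limma-voom were not run with the covariate. The score and the group are nearly the same division of the 6 libraries, so the decreases of the 4 genes and the difference in cortical markers cannot be told apart here.

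**Figure D4:**
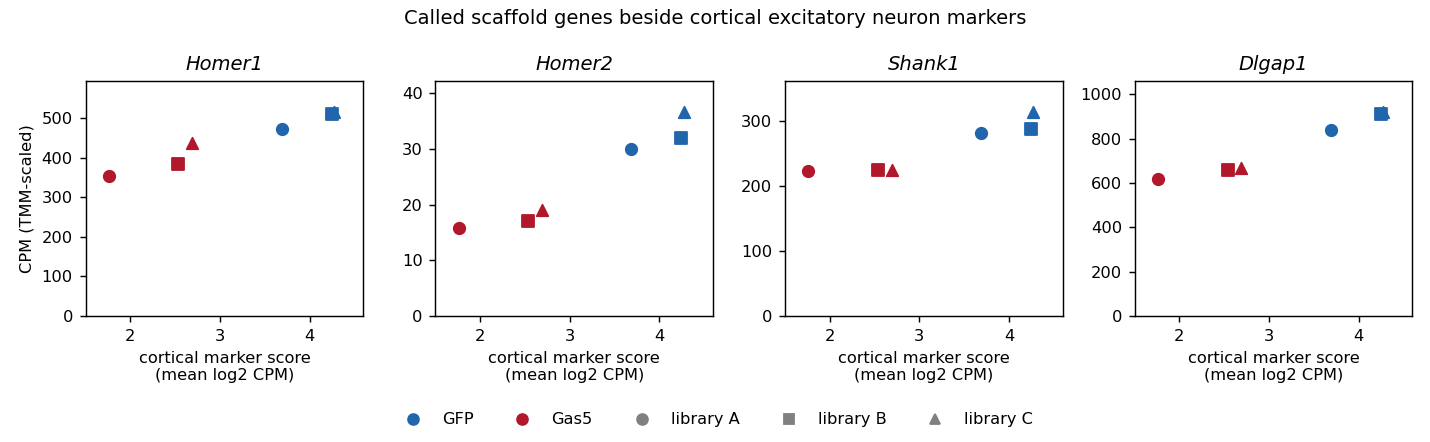
CPM of the 4 called scaffold genes in each library (linear axis from 0) against the cortical marker score, the mean log2 CPM of 9 markers of cortical excitatory neurons. The Gas5 libraries lie at scores of 1.76 to 2.69 and the GFP libraries at 3.69 to 4.27, and Homer1, Homer2 and Dlgap1 rank the libraries as the score does.

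Markers of the accumbens itself were present in every library. Of 12 markers of medium spiny neurons, its principal cells, 0 were called (2 at an unadjusted p under 0.05 in edgeR), with a summed level of 4886 to 6292 CPM in the Gas5 and 5821 to 6601 CPM in the GFP libraries. Interneuron markers had 1 of 8 lower (Vip; 137 to 161 against 157 to 168 CPM summed), with 4 at an unadjusted p under 0.05 and 6 negative. Endothelial and mural markers had 1 of 6 lower (Flt1; 194 to 203 against 214 to 219 CPM), with 1 at an unadjusted p under 0.05 and 4 negative. Oligodendrocyte markers had 1 of 8 lower (Aspa; 1640 to 2069 against 2115 to 2291 CPM), with 6 at an unadjusted p under 0.05, 8 negative and a median log2 fold change of -0.27. Astrocyte markers had 1 of 7 higher (Aqp4), with 4 at an unadjusted p under 0.05, 5 positive and a median of 0.28. Their sum was 2670 to 3209 against 3042 to 3260 CPM, most of it Slc1a2, a glial glutamate transporter, at 2209 ± 298 against 2561 ± 73.7 CPM (SD, n = 3 each; not called). Of 5 ependymal markers only 2 passed the expression filter, of which 1 was higher (Rsph1). The sum over the 5 was 5.88 to 6.70 against 4.09 to 4.64 CPM. Microglia markers had 0 of 6 called, with 4 at an unadjusted p under 0.05 (against 21.4% of all tested genes). Of the 6, 0 were negative, with a median log2 fold change of 0.26 (223 to 242 against 189 to 211 CPM summed). Oligodendrocyte precursor markers had 0 of 4 called, with 2 at an unadjusted p under 0.05 and 1 negative (86.0 to 93.6 against 82.5 to 87.3 CPM). Gfap, Gpr17 and P2ry12 were at 0 counts in all 6 libraries and no other listed marker was. Reads where listed genes overlap appear to be left out, so a count of 0 does not show that a gene is silent. Whether these genes overlap others was not examined. The part of the cell markers in the scaffold results was not tested.

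The binding partners of the 3 families were not called, and the shares of all tested genes given above (21.4% at an unadjusted p under 0.05, 45.8% negative) stand beside their counts. Of 8 genes for partners of Homer, 0 passed the edgeR test, with 3 at an unadjusted p under 0.05, although 8 of 8 had a negative log2 fold change (median -0.18). Ryr2, a calcium release channel, stood at 421 ± 46.1 CPM in the Gas5 and 519 ± 28.2 CPM in the GFP group (SD, n = 3 each; log2 fold change -0.30, adjusted p 0.0806). Grm5, a metabotropic glutamate receptor, had a log2 fold change of -0.060 (adjusted p 0.675) with overlapping groups.

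Of 16 partners of Dlg4 and the Dlgap proteins 0 were called, with 6 at an unadjusted p under 0.05, 14 negative and a median log2 fold change of -0.094. Kalrn, a guanine nucleotide exchange factor of dendritic spines, had the smallest p, at 1268 ± 99.4 CPM in the Gas5 and 1538 ± 82.1 CPM in the GFP group (SD, n = 3 each; log2 fold change -0.28, adjusted p 0.0787). Dlg4 itself had a log2 fold change of -0.077 (adjusted p 0.421). Among 10 partners of Shank 0 were called, with 0 at an unadjusted p under 0.05 and a median of -0.019. The smallest p belonged to Sptan1, a spectrin, at -0.10 (adjusted p 0.345) and Adgrl1, a latrophilin, at -0.13 (adjusted p 0.388).

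The genes whose profile over the 6 libraries was nearest to that of Homer2, the scaffold gene of smallest p, were sought among 12289 other genes by the root mean square difference of centred log2 CPM. They were Ppm1e, a protein phosphatase (difference 0.0218), Lurap1l (0.0513), Coro6, a coronin (0.0517), Nrip3 (0.0599) and Rph3a, the synaptic vesicle protein rabphilin (0.0601). Ppm1e stood at 95.3 ± 9.65 CPM in the Gas5 and 181 ± 17.8 CPM in the GFP group (SD, n = 3 each). The nearest scaffold genes were Dlgap1 (0.239), Shank1 (0.274) and Homer1 (0.284), and the farthest was Homer3 (0.532).

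**Figure D5:**
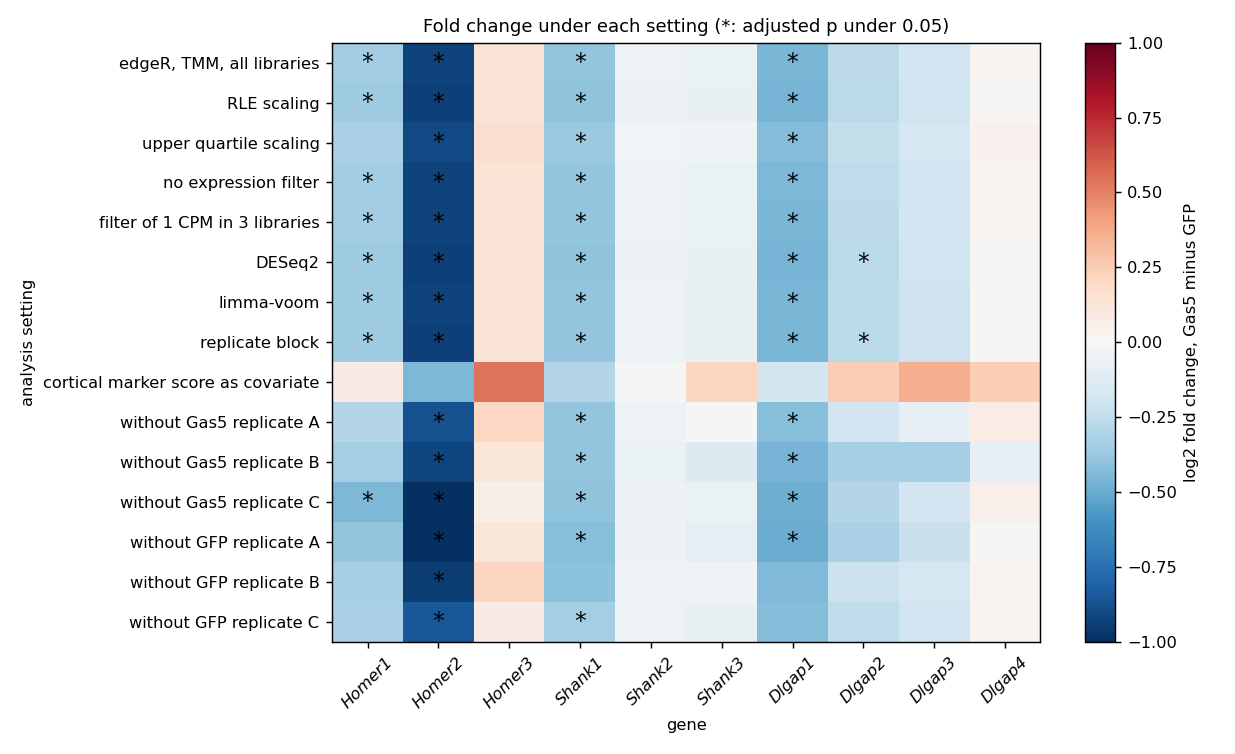
Log2 fold change (colour, limited to -1 to 1) of each scaffold gene under each analysis setting (rows), with an asterisk where the adjusted p is under 0.05. Homer2 carries an asterisk in every row but that of the cortical marker score. Homer1 loses it in that row, under upper quartile scaling and in 5 of the 6 rows that leave out a library.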

How the data were processed

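Per the labels' protocols, total RNA of 6 nucleus accumbens samples was depleted of ribosomal RNA and made into libraries that mark strand. Build GRCm38.p6 and the tools featureCounts 1.5.0-p3, STAR 2.7.0, Trim Galore 0.4.4, edgeR 3.20.9 and bcl2fastq 1.8.4 are named in the submitters' processing notes. The sources used here give neither the strand setting of the counting nor the annotation release. Raw counts per gene were deposited by the authors, 1 table per library, and the length column equals the gene span for all 54641 genes listed as 1 interval. Without a stated use of strand, reads of a gene and its antisense partner cannot be told apart.

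Differences were tested with edgeR 4.0.16 in R 4.3.3 (filterByExpr, TMM, quasi-likelihood F-test, 2-sided, Benjamini-Hochberg over 17563 genes, threshold 0.05), which was tested on simulated data. A standard error is the size of the log2 fold change over the root of F, and 95% intervals use the t quantile of the fit. Log2 CPM has a pseudocount of 0.5. Countable span leaves out bases shared with the spans of other genes listed in the count tables. Exon bases are those of GENCODE M21. Alternatives were RLE and upper quartile scaling, no filter, 1 CPM in 3 libraries, DESeq2 1.42.0, limma-voom 3.58.1, a replicate block, a cortical marker score and leaving out each library. The members, gene lists, paralog ratios and alternatives were chosen with earlier results of these data known. Named genes are the 10 members, Gas5, the 2 genes of smallest p per partner list and the 5 nearest to Homer2, placeholder symbols left out; 2 of the partner genes so chosen are not reported here. Grm5, Dlg4 and the marker genes were named after their values were seen.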

Additional observations from a re-analysis of the deposited data

How the results depend on the processing

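Homer2, Shank1 and Dlgap1 kept their direction under all 14 alternatives, and Homer1 under all but the cortical marker score. The number of scaffold genes called lower was 4, with 3 under upper quartile scaling and 5 with DESeq2. It was 0 with the score as a covariate and 1 to 4 when a library was left out. The number called higher was 0 throughout. Over all genes the calls were 695 lower and 260 higher. With the score they were 0 and 0, and without 1 library 101 to 611 lower and 4 to 251 higher (101 and 6 without GFP C, 111 and 4 without GFP B, 112 higher without Gas5 A). The higher calls numbered 656 with no expression filter, 495 with DESeq2 and 510 with the replicate block. With the score the log2 fold change turned to 0.085 for Homer1, 0.21 for Shank3, 0.25 for Dlgap2 and 0.36 for Dlgap3. The cause was not tested.

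Leaving out a library gave Dlgap4 log2 fold changes of -0.085 (without Gas5 B) to 0.075, and differences of the log2 ratio of Dlgap2 to Dlgap3 of -0.096 to 0.0060. The ratio of Homer2 to Homer1 differed by -0.61 to -0.52 and that of Shank1 to Shank3 by -0.37 to -0.25. The shared letters A, B and C are not known to pair the samples. Deviations of same-letter libraries correlated at 0.16, 0.18 and -0.094 over genes, and 4 of the 6 libraries correlated best with their own letter. The replicate block gave 928 lower and 510 higher genes and 5 lower scaffold genes, Dlgap2 being added (adjusted p 0.0363, edgeR). Homer3, with 87 to 161 counts per library, is the scaffold gene that depth limits most.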
